A study of Bos taurus with 6 samples.

Results

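Genes induced by interferon and genes of antigen presentation were followed in cartilage cells of the bovine knee, taken from the deep zone next to bone, with and without forced expression of the transcription factor CREB5. The set held every row of the deposited gene table whose symbol was in a given list of 52 symbols or began with BOLA-, the prefix of the cattle major histocompatibility complex (MHC). It came to 60 of 27607 genes, 40 of them antiviral and 20 of antigen presentation. Of the listed symbols 50 had a row. RIGI is the newer name of DDX58, which was present, and BST2 was not analysed here. All 6 cultures had been infected with a lentivirus carrying doxycycline-inducible bovine CREB5, selected in G418 at 500 µg/ml for 11 days, and then kept on low attachment plates for 3 days in DMEM/F12 with 10% FBS, 20 ng/ml of TGFb2 and 100 ng/ml of TGFa. The 3 Dox- libraries came from cells without doxycycline and the 3 Dox+ libraries from cells given doxycycline at 1 µg/ml in the treatment protocol, from 3 independently collected knees. The series' design text gives another unit for this dose. No cells with doxycycline but without the CREB5 construct were analysed here, so the action of the drug itself and that of CREB5 cannot be told apart. The labels give infected and selected cultures and name no clone.

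Interferons bind cell surface receptors whose kinases phosphorylate STAT proteins. Complexes that hold STAT2 and IRF9 then switch on the antiviral genes, among them sensors of viral RNA, the ubiquitin-like protein ISG15 and the MX and IFIT effectors. Interferon gamma acts in part through IRF1 and is best known for raising antigen presentation. In MHC class I presentation, peptides cut by the immunoproteasome (PSMB8, PSMB9, PSMB10) are carried into the endoplasmic reticulum by TAP1 and TAP2 and loaded with the help of TAPBP onto a heavy chain paired with B2M. In MHC class II presentation, the invariant chain CD74 guards the BOLA-DR and BOLA-DQ dimers until the DM proteins exchange it for peptide. NLRC5 and CIITA are the coactivators of class I and class II genes.

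The libraries held between 20063379 reads (Dox+ 3) and 122366790 reads (Dox+ 2), and Dox+ 1 held 30355805. Values below are normalized counts, listed in the order of library number 1, 2, 3. A floor of 3 reads was worth 1.32 (Dox+ 2) to 6.98 (Dox+ 3) normalized counts and covers counting error only. CREB5 stood at 308 to 509.5 in Dox- and 12413 to 21964 in Dox+ libraries. Each of 12 chondrocyte markers had reads in each library, and their levels differed between the groups. PRG4, the lubricin of the cartilage surface, and MATN3 rose (log2 fold changes 8.59 and 4.02), ACAN, CHAD and COL9A1 fell (-2.26, -2.82 and -2.48), and 7 did not pass (limma adjusted p of the called ones 2.1e-05 to 0.034). Over all tested genes limma called 2.52% higher and 0.357% lower. Of the 12, 8 were lower in Dox+ in each same-numbered pair, as were 2514 of all 13180 tested genes. Among these 8 markers was COL2A1, type II collagen, at 18352 to 57510.4 normalized counts in Dox- and 8779 to 22991 in Dox+ cells (log2 fold change -1.48, limma adjusted p = 0.22, blocked 0.0023). SOX9, the chondrocyte transcription factor, was at 1885 to 7812 in Dox- and 2688 to 5722 in Dox+ cells. The part of this shift in the results below was not tested. Fold changes are differences of group means of log2(normalized count + 1) from limma, and a gene is called at a Benjamini-Hochberg adjusted p under 0.05 over all 13180 genes with a mean of at least 10. Same-numbered libraries of the groups deviated together, at correlations of 0.65, 0.44 and 0.21 for numbers 1, 2 and 3. Dox- 3 and Dox+ 2 reached 0.18, so number 3 hardly stood out, and the pairing was read from these same data. Each value is also given, mainly where it changes the call, from limma with the library number as a block. It is written as the blocked value.

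CD74 and PSMB8 of antigen presentation and the antiviral gene IFI6 rose with doxycycline. Of the 20 antigen presentation genes, 13 had a mean of at least 10. CD74 and PSMB8 rose, 0 fell and 11 did not pass, against 2.52% of all tested genes called higher and 0.357% called lower. With the block 8 were called higher, CD74, PSMB8, BOLA-DRA, NLRC5, TAP1, PSMB9, BOLA-DMB and B2M, where 4.86% of all tested genes were. The Dox+ values lay wholly above the Dox- values for 9 of the 13 (8.88% of all tested genes), and the median log2 fold change was 1.43 (all tested genes -0.0036). Of the 40 antiviral genes, 35 had a mean of at least 10. IFI6 rose, 0 fell and 34 did not pass. With the block IFI6 and LGALS3BP were called. Both counts, 1 and 2 of 35, are near the 2.52% and 4.86% of all tested genes called higher. DESeq2 on recovered reads called 6 antiviral and 7 antigen presentation genes higher, and 4.12% of all genes. With edgeR IFI6, CD74 and PSMB8 were called higher, and 2.31% of all genes. At an unadjusted p under 0.05, 9 antiviral and 9 antigen presentation genes were higher, against 7.02% of all tested genes. Groups did not overlap for 8 of the 35, all higher in Dox+, and the median log2 fold change was 0.60. Genes with a low mean could pass this filter through the group in which they are high, so these counts describe the tested genes and are not evidence about the sets.

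**Figure D1:**
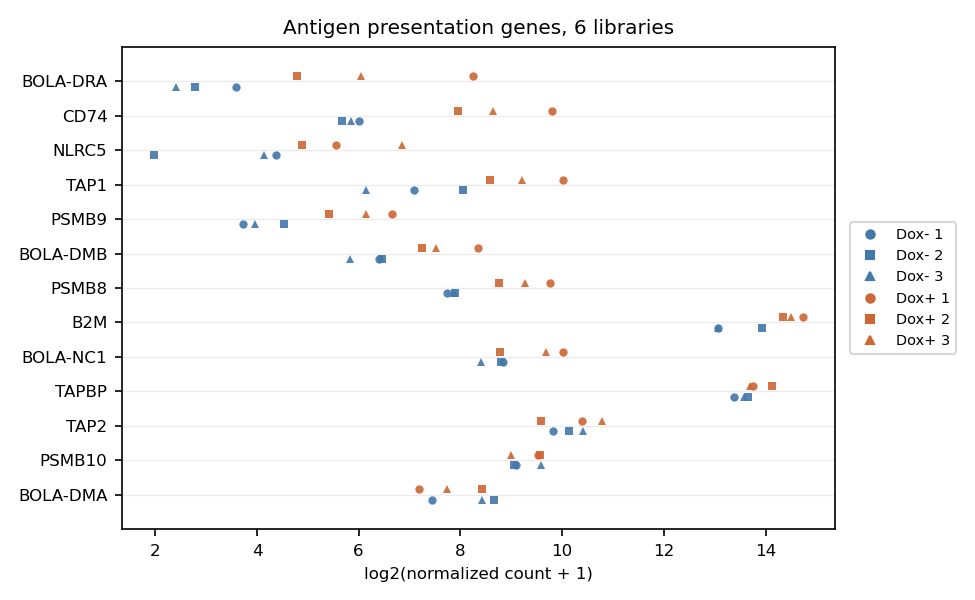
Levels of the 13 tested antigen presentation genes as log2(normalized count + 1) on the x axis, 1 gene per row ordered by fold change, with Dox- libraries in blue, Dox+ libraries in orange and the marker shape giving the library number. In the 8 upper rows, from BOLA-DRA to B2M, each orange point lies to the right of each blue point, and Dox+ 2 (square) is the leftmost orange point in these rows.

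The class I pathway was followed from proteasome to cell surface. PSMB8, a catalytic subunit of the immunoproteasome, measured 213, 237 and 233 normalized counts in Dox- and 866, 432 and 619 in Dox+ cells. The Dox- libraries lay within a narrow range, below each Dox+ library, and PSMB8 rose 2.69-fold (1.43 on the log2 scale, SE 0.29, limma adjusted p = 0.036). Its call was lost with 1 library left out, at a limma adjusted p between 0.069 and 0.11 when any Dox- library was dropped, 0.15 when Dox+ 1 was and 0.19 when Dox+ 3 was. PSMB9, a second such subunit, measured 12.3, 22.2 and 14.7 normalized counts in Dox- and 99.8, 41.9 and 69.8 in Dox+ cells. Its groups did not overlap, and it was 3.99-fold higher (limma adjusted p = 0.097, blocked 0.039). PSMB10, the third inducible subunit, stood at 531 to 763 normalized counts in Dox- and 507 to 758 in Dox+ cells, with a 95% interval of the log2 fold change of -0.46 to 0.70. The PSMB10 groups overlapped, and the difference between the subunits was not tested.

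TAP1, which forms the peptide transporter with TAP2, measured 135, 263 and 69.7 normalized counts in Dox- and 1032, 384 and 595 in Dox+ cells. Each Dox+ library was above the highest Dox- library, Dox- 2, and the gene was 4.54-fold higher (2.18 on the log2 scale, SE 0.52, limma adjusted p = 0.073, blocked 0.015). Its partner TAP2 measured 903, 1126 and 1369 normalized counts in Dox- and 1340.3, 763 and 1763 in Dox+ cells. The TAP2 groups overlapped, with Dox+ 2 the lowest of the 6, and the 95% interval of its log2 fold change was -0.60 to 0.84. TAPBP, the tapasin that tethers the transporter to class I molecules, measured 10601, 12894 and 12166 normalized counts in Dox- and 13772, 17925 and 13322 in Dox+ cells. All Dox+ values were above all Dox- values, yet the difference was small (1.25-fold, limma adjusted p = 0.67).

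B2M, the light chain shared by all class I molecules, measured 8576, 15683 and 8562 normalized counts in Dox- and 27235, 20689 and 23166 in Dox+ cells. Dox- 2 stood well above the other Dox- libraries but below each Dox+ library, and B2M was 2.25-fold higher (1.17 on the log2 scale, SE 0.26, limma adjusted p = 0.058, blocked 0.017). BOLA-NC1, a non-classical class I heavy chain, measured 457, 442 and 339 normalized counts in Dox- and 1041, 438 and 826 in Dox+ cells. Dox+ 2 lay within the Dox- range, and the gene did not pass (1.76-fold, limma adjusted p = 0.40). NLRC5, the class I coactivator, measured 19.6, 2.96 and 16.5 normalized counts in Dox- and 45.7, 28.7 and 114 in Dox+ cells. It had few reads, 2 in Dox- 2 and 65 in Dox+ 2, and its groups did not overlap (4.81-fold, 2.27 on the log2 scale, limma adjusted p = 0.27, blocked 0.026). Without Dox- 2 the log2 fold change was 1.51.

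Of class II presentation, CD74, the invariant chain, measured 63.2, 50.3 and 56.9 normalized counts in Dox- and 897, 248 and 400.0 in Dox+ cells. The Dox- libraries differed little from each other, while Dox+ 1 was more than Dox+ 2 and Dox+ 3 together. CD74 rose 7.78-fold (2.96 on the log2 scale, SE 0.46, limma adjusted p = 0.0093). Without Dox+ 3 its adjusted p was 0.062, with a log2 fold change of 3.04, and it kept its call without each of the other libraries. BOLA-DRA, the alpha chain of the DR molecule, measured 11.0, 5.92 and 4.28 normalized counts in Dox- and 303, 26.5 and 65.1 in Dox+ cells. Its Dox- values rested on 18, 4 and 7 reads. It was 10.8-fold higher with no overlap (3.43 on the log2 scale, SE 0.86, limma adjusted p = 0.090, blocked 0.0049), and Dox+ 1 again stood highest. On the log2 scale this difference was 2.49 without Dox+ 1 and 4.22 without Dox+ 2.

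The DM proteins load class II molecules with peptide. BOLA-DMB, the beta chain, measured 84.0, 87.3 and 56.3 normalized counts in Dox- and 325, 150.5 and 184 in Dox+ cells, without overlap (2.77-fold higher, limma adjusted p = 0.11, blocked 0.023). BOLA-DMA, the alpha chain of the same dimer, measured 173, 404 and 344 normalized counts in Dox- and 144, 342 and 212 in Dox+ cells. BOLA-DMA was lower in Dox+ cells in each same-numbered pair and its groups overlapped (log2 fold change -0.40, 95% interval -1.36 to 0.56, limma adjusted p = 0.86). The class II coactivator CIITA had 0 reads in each Dox- library and 8, 1 and 0 reads in Dox+ 1, 2 and 3. Over a floor of 3 reads per Dox- library it was at least 1.72-fold higher, a bound that rests on Dox+ 1 alone: without that library the Dox+ mean lay under the floor and no bound remained. Its mean was under 10, so it was not tested. No read of BOLA-DYA, BOLA-DYB or BOLA-DOB was counted in any library, which allows up to 3 reads in each. BOLA-DOA, BOLA-DQA5 and BOLA-DQB had 0 Dox- reads and 3, 3 and 1 Dox+ reads in all, at or under the floor.

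**Figure D2:**
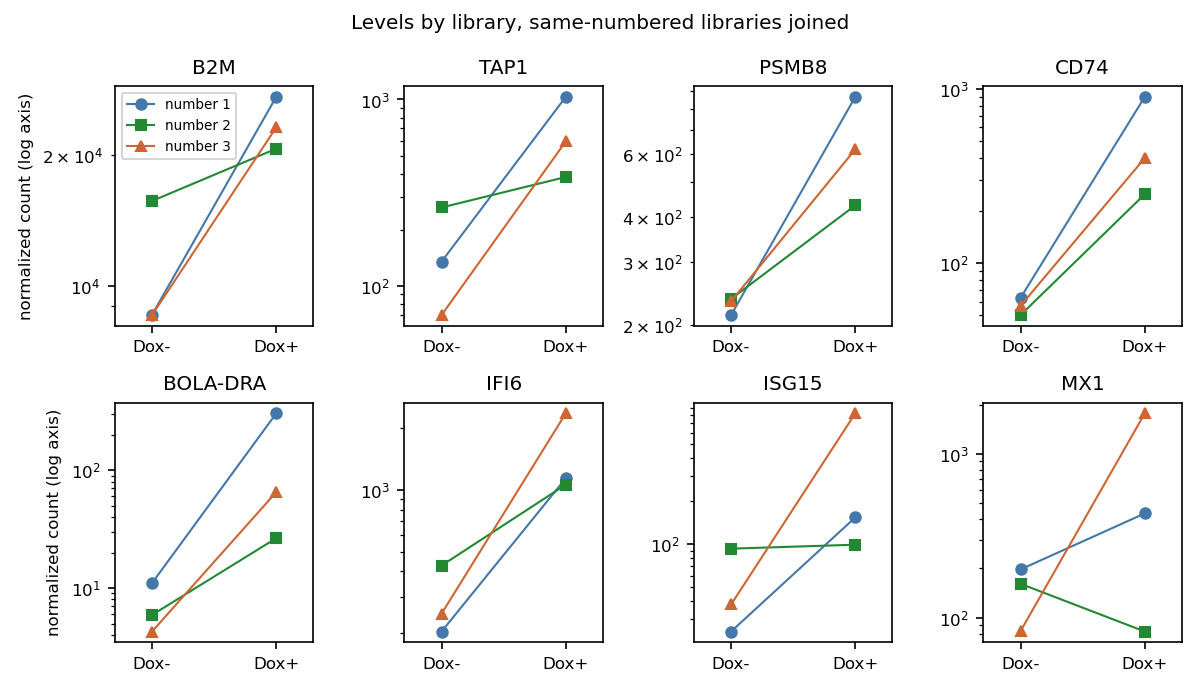
Normalized counts of 8 genes on a log axis in Dox- and Dox+ cells, with lines joining libraries of the same number (blue circle 1, green square 2, orange triangle 3). The lines of B2M, TAP1, PSMB8, CD74, BOLA-DRA and IFI6 all point upward, ISG15 is nearly level for number 2, and MX1 goes down for number 2 and up most steeply for number 3.

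Several of these genes neighbour each other. In the RefSeq annotation of ARS-UCD2.0, which matched 58 of the 60 symbols and is another build than the authors' files use, the protein-coding genes run in the order BOLA-DOB, TAP2, LOC618733, PSMB8, TAP1, PSMB9, H2B, BOLA-DMB, BOLA-DMA, BRD2 and BOLA-DOA. Along that order the log2 fold changes were 0.12 for TAP2, 1.43 for PSMB8, 2.18 for TAP1, 2.00 for PSMB9, 1.47 for BOLA-DMB, -0.40 for BOLA-DMA and -0.26 for BRD2, a chromatin reader. The genes with the higher values therefore lay between TAP2 and BOLA-DMA, whose intervals include 0. In that annotation 17 members overlapped another gene, among them PARP9 and DTX3L with each other, IRF9 with RNF31, STAT2 with IL23A and PSMB10 with LCAT. IFIT2, IFIT3 and IFIT5 each overlapped LIPA, and OAS2 overlapped OAS1Y. No source used here gives the strand setting of the counting. Reads from a stretch that the genes of such a pair share may not be told apart. The same holds in part for near copies such as the class I heavy chains.

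Class II genes are best known from immune cells, so leukocyte markers were followed in the same libraries. Of these, 4 of 20 had 0 reads in all 6 libraries (C1QA, C1QB, C1QC and ITGAM). PTPRC, the pan-leukocyte surface marker, had 3 reads in Dox- 1 and 1 in Dox+ 3 and 0 in the others. Summed over the list, the markers came to 874 to 1531 normalized counts in Dox- and 558 to 1351 in Dox+ libraries. By limma, edgeR or DESeq2, 0 of 6 tested were called, and 0 had an unadjusted p under 0.05. With the block 1, LAPTM5, was called lower. Over all tested genes, limma called 2.88% in either direction, edgeR 2.6%, DESeq2 5.33% and the block 6.51%. An unadjusted p under 0.05 was found for 10.6%. A count of 0 in a list of 5 or 6 genes is near these shares, here and below. TYROBP, an adaptor of myeloid and natural killer cells, was found only in the libraries numbered 1, with 53 reads in Dox- 1 and 14 in Dox+ 1. CD68, a lysosomal protein of macrophages, was highest in Dox+ 1 at 582 and at 138 to 317 in Dox- libraries. AIF1, a macrophage protein, had 3 reads in Dox+ 1 and 0 elsewhere. Of the 6 tested leukocyte markers 2 were highest in Dox+ 1, CD68 and CSF1R, and 3 were higher there than in Dox- 1. CD14, FCER1G and LAPTM5 were lower in Dox+ 1 than in Dox- 1, as was TYROBP, which had a mean under 10 and was not tested. Dox+ 1 was also the library with the highest CD74, BOLA-DRA and CIITA, and the part of such cells in these values was not tested. Endothelial markers had 2 of 10 at 0 in all libraries, CLDN5 and ESAM, and the list summed to 1783 to 2602 in Dox- and 858 to 1497 in Dox+. ERG, which chondrocytes also express, made up most of these sums, and 0 of 5 tested were called (ERG was lower with the block and by DESeq2). Synovial fibroblast markers summed to 161200 to 230800 in Dox- and 115000 to 177400 in Dox+, with CLIC5 at 0, and 0 of 6 tested were called by limma or edgeR (with the block DPT was higher and THY1 and FAP lower, and DESeq2 called DPT, PDPN and THY1, the 3 with an unadjusted p under 0.05). In bulk RNA, fewer cells of a type and less RNA per cell cannot be told apart.

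The library with the highest level was counted for each gene. Of the 35 tested antiviral genes, 28 had their highest value of all 6 libraries in Dox+ 3, where 14.7% of all tested genes had theirs. Of the 13 tested antigen presentation genes, 8 had it in Dox+ 1 (17.2% of all tested genes) and 2 in Dox+ 3. Within same-numbered pairs, the median difference of the antiviral genes on the log2(normalized count + 1) scale was 0.63 for number 1, -0.025 for number 2 and 1.28 for number 3, and 25, 15 and 33 of the 35 were higher in Dox+. For antigen presentation the medians were 1.67, 0.54 and 1.44, with 12, 10 and 11 of 13 higher. Over all tested genes these medians were 0.0024, -0.00098 and -0.011, and 6636, 6575 and 6502 of 13180 genes were higher. Each number is 1 pair of libraries, so the difference between numbers was not tested. Dox+ 2 was the lowest of the Dox+ libraries for 27 of 35 antiviral genes (77.1%), for 10 of 13 antigen presentation genes (76.9%) and for 39% of all tested genes. Dox+ 2 was sequenced most deeply and Dox+ 3 least, and the part of depth in the order was not tested.

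**Figure D3:**
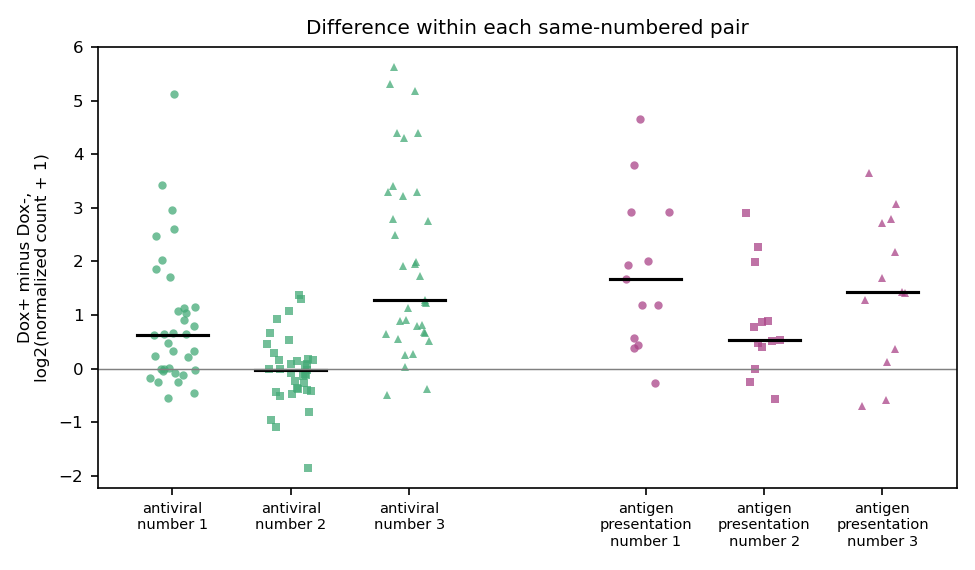
Difference of each tested gene between Dox+ and Dox- libraries of the same number on the log2(normalized count + 1) scale, with antiviral genes in green and antigen presentation genes in purple and the median of each column as a black bar. The antiviral column of number 2 is centred at -0.025 and that of number 3 at 1.28, whereas the antigen presentation columns have medians of 1.67, 0.54 and 1.44.

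Among the sensors of viral RNA, IFIH1 (MDA5) varied widely within the Dox+ group. It measured 28.2, 5.92 and 31.8 normalized counts in Dox- and 105, 3.97 and 221 in Dox+ cells. Dox+ 2 was the lowest of the 6 libraries and Dox+ 3 the highest, and the gene did not pass (limma adjusted p = 0.85). DDX58 (RIG-I) measured 158, 129 and 74.0 normalized counts in Dox- and 250.5, 95.8 and 791 in Dox+ cells, with Dox+ 2 inside the Dox- range (limma adjusted p = 0.66). DHX58, their regulator LGP2, ranged over 201 to 352 normalized counts in Dox- and 347 to 621 in Dox+ cells (limma adjusted p = 0.60). ZBP1, a sensor of Z-form nucleic acid, had a mean under 10 and was not tested.

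Of the 7 factors that carry the interferon signal 0 passed by limma, DESeq2 or edgeR, and 0 had an unadjusted p under 0.05. Over all tested genes limma called 2.88%, DESeq2 5.33% and edgeR 2.6%, and 10.6% had an unadjusted limma p under 0.05. A count of 0 in 7 genes is near these shares. STAT2, a partner in the interferon-induced complex, measured 1041, 732 and 692 normalized counts in Dox- and 985, 815 and 1095 in Dox+ cells. IRF9, its DNA-binding partner, measured 608, 895 and 882 normalized counts in Dox- and 848, 760.0 and 1260.4 in Dox+ cells. The groups overlapped for both, with 95% intervals of the log2 fold change of -0.28 to 0.78 for STAT2 and -0.35 to 0.85 for IRF9. IRF7, the amplifier of interferon production, measured 415, 426 and 430.5 normalized counts in Dox- and 482, 451 and 749 in Dox+ cells. Its Dox- libraries were close together and each Dox+ library lay above them, yet the difference was 1.29-fold and did not pass (limma adjusted p = 0.77). IRF1, the mediator of interferon gamma responses, measured 879, 1001 and 620.1 normalized counts in Dox- and 643, 2117 and 737 in Dox+ cells. Only Dox+ 2 stood apart, and the log2 fold change of IRF1 was 0.29 with all libraries and -0.25 without Dox+ 2. STAT3, which serves interleukin-6 type cytokines, measured 7590.4, 7789.8 and 9516 normalized counts in Dox- and 6691, 7657 and 7320.5 in Dox+ cells. It was lower in each same-numbered pair (log2 fold change -0.20, 95% interval -0.58 to 0.19). IRF2 and IRF3 had log2 fold changes of 0.31 and -0.11 and limma adjusted p of 0.79 and 0.92.

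**Figure D4:**
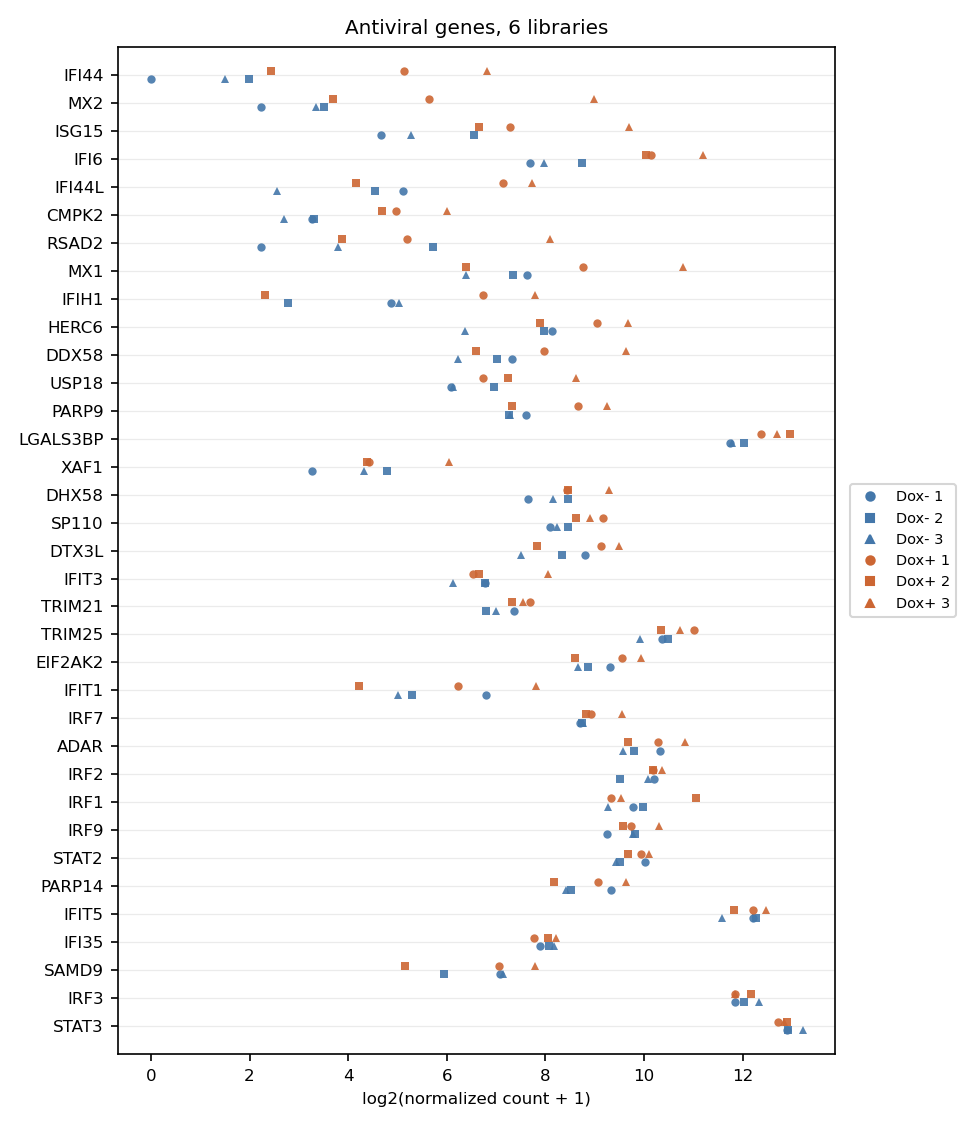
Levels of the 35 tested antiviral genes as log2(normalized count + 1), 1 gene per row ordered by fold change, with Dox- libraries in blue, Dox+ libraries in orange and the marker shape giving the library number. In most rows Dox+ 3 (orange triangle) lies furthest right, in 28 of 35 beyond all other libraries, while Dox+ 2 (orange square) lies among the blue points for genes such as RSAD2, DDX58 and HERC6.

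ISG15, the ubiquitin-like modifier, measured 24.5, 93.2 and 37.9 normalized counts in Dox- and 154, 99.3 and 823 in Dox+ cells. The groups did not overlap, but Dox+ 2 and Dox- 2 were nearly equal, and ISG15 did not pass (5.16-fold, 2.37 on the log2 scale, SE 0.79, limma adjusted p = 0.25, blocked 0.063). It was 1.46 on the log2 scale without Dox+ 3 and 2.98 without Dox+ 2. The protease USP18, which removes ISG15, ranged over 66.8 to 123 normalized counts in Dox- and 105 to 393 in Dox+ cells (limma adjusted p = 0.49). HERC6, the ligase that attaches ISG15 in several mammals, measured 281, 251 and 81.9 normalized counts in Dox- and 528, 237 and 812 in Dox+ cells (limma adjusted p = 0.41). TRIM25, a ubiquitin ligase of the RIG-I pathway, was at 964 to 1427 normalized counts in Dox- and 1293 to 2071 in Dox+ cells. Of this system 0 of 4 passed by limma or edgeR, 2 had an unadjusted p under 0.05 (ISG15 and HERC6; 7.02% of all tested genes were higher at that level) and 1 passed by DESeq2 (ISG15; 4.12% of all genes).

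The MX proteins are GTPases that block viral replication. MX1 measured 197, 161 and 83.2 normalized counts in Dox- and 433, 82.5 and 1765 in Dox+ cells. MX2 measured 3.68, 10.4 and 9.17 normalized counts in Dox- and 49.1, 11.9 and 502 in Dox+ cells. In both, Dox+ 3 exceeded every other library by far. MX1 in Dox+ 2 was the lowest of the 6, so its groups overlapped (limma adjusted p = 0.71), while MX2 in Dox+ 2 was just above the highest Dox- library (limma adjusted p = 0.35, blocked 0.068). Leaving out Dox+ 2 ended the overlap of MX1. CMPK2, a mitochondrial nucleotide kinase, measured 8.58, 8.87 and 5.50 normalized counts in Dox- and 30.5, 24.7 and 62.8 in Dox+ cells, without overlap (4.38-fold, limma adjusted p = 0.13). RSAD2 (viperin), which makes a chain-terminating nucleotide and is the neighbour of CMPK2, measured 3.68, 51.8 and 12.8 normalized counts in Dox- and 35.5, 13.7 and 272 in Dox+ cells, with overlap (limma adjusted p = 0.73).

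Of the IFIT family, which binds viral RNA, none was called by limma (0 of 3 tested, 0 at an unadjusted p under 0.05, 0 by DESeq2 and 0 by edgeR). Over all tested genes these shares were 2.88% by limma, 10.6% at an unadjusted p under 0.05, 5.33% by DESeq2 and 2.6% by edgeR. A count of 0 in 3 genes is near them. IFIT1 measured 109.8, 38.5 and 31.2 normalized counts in Dox- and 74.5, 17.7 and 223 in Dox+ cells. Dox+ 2 was the lowest and Dox+ 3 the highest of all libraries, and the log2 fold change was 0.39 with all libraries and -0.47 without Dox+ 3. IFIT3 and IFIT5 ranged over 69.1 to 109 normalized counts in Dox- and 91.4 to 265 in Dox+ cells and 3062 to 4931 normalized counts in Dox- and 3635 to 5660.1 in Dox+ cells. IFIT2 had 3 Dox- reads, all in Dox- 1, and 5, 3 and 16 reads in the Dox+ libraries, a ratio per depth of 9.60 with a 95% counting interval of 2.91 to 49.8. This ratio was 3.68 (0.883 to 21.5) without Dox+ 3 and 27.0 (8.07 to 142) without Dox+ 2. Among the other effectors, EIF2AK2 (the kinase PKR), ADAR, TRIM21 and SAMD9 had log2 fold changes of 0.42, 0.36, 0.48 and -0.064 and limma adjusted p from 0.72 to 0.99. OAS2 had 0 Dox- and 3 Dox+ reads, and the exonuclease gene ISG20 had a mean under 10 and stood at 4.28 to 16.6 normalized counts in Dox- and 0.883 to 10.2 in Dox+ cells.

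IFI6, a small membrane protein that limits flavivirus replication, was the antiviral gene that rose without the block. It measured 204, 427 and 249 normalized counts in Dox- and 1134, 1057 and 2346 in Dox+ cells. Each Dox+ library was more than 2 times the highest Dox- library, Dox- 2, and IFI6 rose 5.04-fold (2.33 on the log2 scale, SE 0.38, limma adjusted p = 0.012). Dropping Dox- 3 gave a limma adjusted p of 0.053, and dropping Dox+ 3 gave 0.062. IFI44 measured 0, 2.96 and 1.83 normalized counts in Dox- and 33.8, 4.41 and 112 in Dox+ cells, on 0, 2 and 3 reads in Dox- libraries, with no overlap (limma adjusted p = 0.21, blocked 0.059). Its neighbour IFI44L measured 33.7, 22.2 and 4.89 normalized counts in Dox- and 140.5, 16.8 and 212 in Dox+ cells, with Dox+ 2 inside the Dox- range (limma adjusted p = 0.47). XAF1, a proapoptotic factor, and IFI35 had limma adjusted p of 0.82 and 0.98. IFI27, with a mean under 10, stood at 0.613 to 7.39 normalized counts in Dox- and 5.08 to 32.6 in Dox+ cells.

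LGALS3BP, a secreted galectin-binding glycoprotein, differed from the order seen above. It measured 3449.7, 4163 and 3512 normalized counts in Dox- and 5332, 7965 and 6629.8 in Dox+ cells. Here Dox+ 2 was the highest library, and the gene was 1.77-fold higher (0.83 on the log2 scale, SE 0.20, limma adjusted p = 0.075, blocked 0.015). SP110, a nuclear body protein, measured 272, 349 and 300.2 normalized counts in Dox- and 574, 391 and 481 in Dox+ cells, without overlap (1.56-fold, limma adjusted p = 0.36). PARP9 and its ubiquitin ligase partner DTX3L, whose genes overlap, ranged over 152 to 195 normalized counts in Dox- and 159 to 607 in Dox+ cells and over 179.8 to 447 normalized counts in Dox- and 227 to 719 in Dox+ cells, and the related ADP-ribosyltransferase PARP14 over 342 to 640.1 normalized counts in Dox- and 287 to 798 in Dox+ cells. None of the 3 was called by limma (0 at an unadjusted p under 0.05, 0 by DESeq2 and 0 by edgeR). A count of 0 in 3 genes is near the shares of all tested genes (2.88%, 10.6%, 5.33% and 2.6%).

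**Figure D5:**
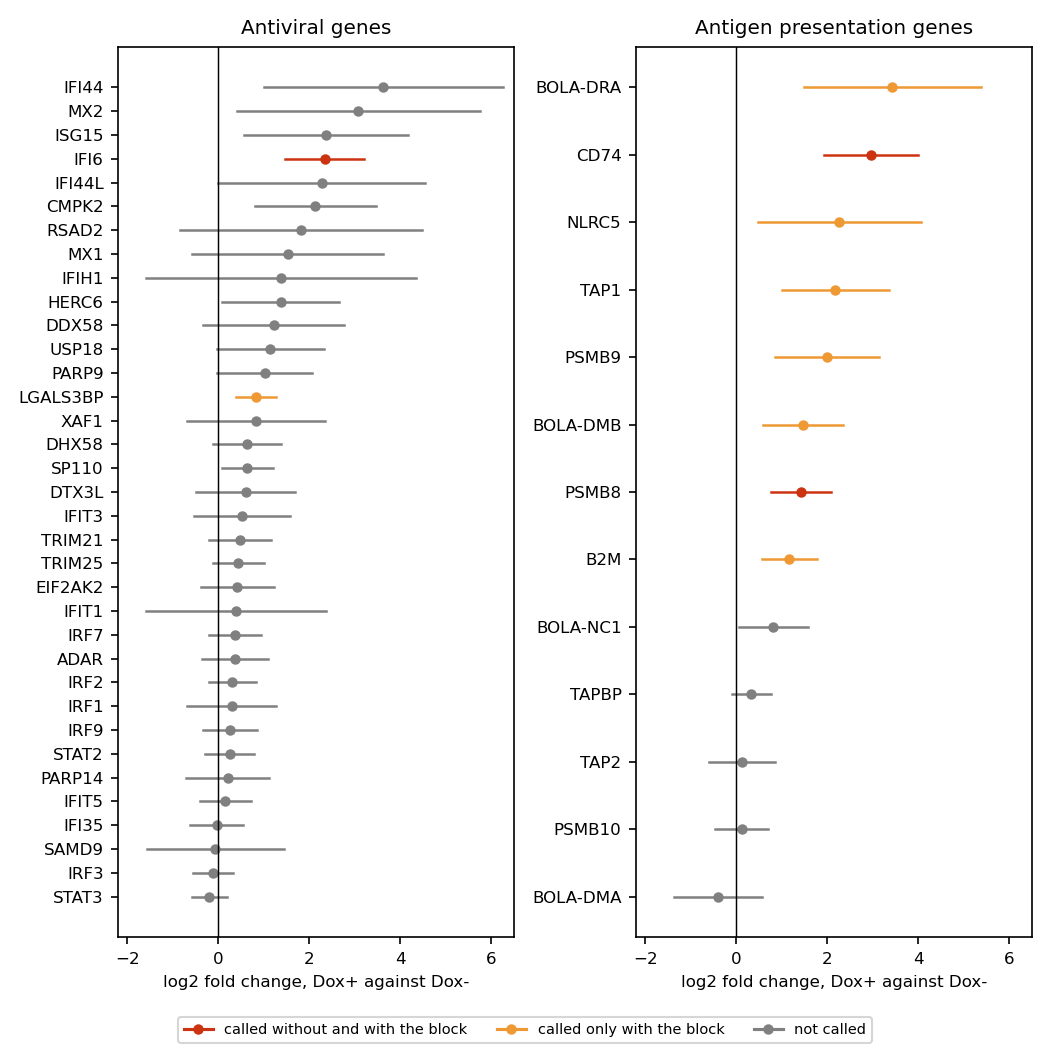
Log2 fold change of each tested gene, Dox+ against Dox-, with its 95% interval from limma without the block. Red genes (IFI6, CD74, PSMB8) were called with and without the block, orange genes (LGALS3BP and 6 antigen presentation genes) only with it, and grey genes in neither fit.

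Other genes of the interferon pathway were taken from a list of 69 symbols, of which 61 rows were found and 44 tested. PTPN2 rose, 0 fell and 43 did not pass, with a median log2 fold change of 0.20. That 1 of 44 is near the 2.52% of all tested genes called higher. PTPN2, a phosphatase that dampens JAK kinase signalling, measured 2309.8, 3388 and 3012 normalized counts in Dox- and 5358, 6387 and 5237 in Dox+ cells. It was 1.97-fold higher without overlap (limma adjusted p = 0.034), and leaving out any 1 library ended the call (adjusted p 0.056 to 0.13, the latter without Dox+ 3). With the block 5 were called higher, PTPN2, IRF5, OAS1X, OAS1Y and 1 of 2 rows named IFITM3, where 4.86% of all tested genes were, and 0 lower. IRF5, an interferon regulatory factor of immune cells, measured 36.2, 28.1 and 19.6 normalized counts in Dox- and 93.1, 113 and 86.0 in Dox+ cells (limma adjusted p = 0.060, blocked 0.017). OAS1X, a 2-5A synthetase gene of cattle, measured 29.4, 38.5 and 13.5 normalized counts in Dox- and 506, 46.3 and 763 in Dox+ cells (limma adjusted p = 0.15, blocked 0.035). OAS1X showed the order of the antiviral genes, with Dox+ 2 next to the Dox- libraries.

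Upstream of these, IFNGR1, the ligand-binding receptor of interferon gamma, measured 1398, 1111 and 1206 normalized counts in Dox- and 1680.4, 1836 and 1993 in Dox+ cells. Its groups did not overlap and the gene did not pass (1.49-fold, limma adjusted p = 0.22). Of 6 interferon genes with a row, IFNE, IFNK, IFNL3, IFN-TAU and IFNT had 0 reads in all 6 libraries, which allows up to 3 reads in each, and IFNG had 2 reads, both in Dox+ 3. No IFNA or IFNB gene was among these rows, so their level was not followed here. The chemokine gene CXCL10 had 1 read, in Dox+ 3.

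In a list of 19 other antigen processing genes, all tested, CTSL rose, 0 fell and 18 did not pass. The median log2 fold change was 0.17, and 2.52% of all tested genes were called higher and 0.357% lower. CTSL, the lysosomal protease cathepsin L, measured 20.2, 2.96 and 1.83 normalized counts in Dox- and 858, 459 and 621 in Dox+ cells. Dox- 2 and Dox- 3 rested on 2 and 3 reads, and CTSL rose 101-fold (6.66 on the log2 scale, SE 0.72, limma adjusted p = 0.0013). With 1 library left out it was called each time, at 68.3-fold (without Dox- 3) to 187-fold (without Dox- 1). CTSS, cathepsin S, which trims the invariant chain, measured 1312, 1152 and 733 normalized counts in Dox- and 2584, 1351 and 1881 in Dox+ cells, without overlap (1.81-fold, limma adjusted p = 0.28). The constitutive proteasome subunits PSMB5, PSMB6 and PSMB7, which PSMB8, PSMB9 and PSMB10 replace, had log2 fold changes of -0.031, -0.055 and 0.036. PSME1 and PSME2, the interferon-inducible proteasome activator, had 0.18 and 0.11.

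In the authors' deposited table of their own comparison, 7 antiviral and 8 antigen presentation genes had an adjusted p under 0.05 and were higher, where 5.24% of all genes with an adjusted p were. The authors' deposited table gave IFI6 a log2 fold change of 2.25, CD74 2.92 and BOLA-DRA 3.60. For MX1 the authors' deposited table had 0.10, where the limma fit above had 1.52 and DESeq2 on recovered reads 2.37. For RSAD2 the authors had 0.32 with an SE of 0.56 and an unadjusted p of 0.0058. That p is smaller than this fold change and SE alone would give. No source used here says if shrinkage was applied to the authors' values.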

How the data were processed

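RNA of 6 cultures, 3 Dox- and 3 Dox+, had been sequenced after mRNA library preparation with KAPA mRNA HyperPrep kits, per the labels' protocols. Per the submitters' processing notes, which state no roles, the tools were STAR 2.5.2b, DESeq2, Salmon, MultiQC 1.2 and FastQC 0.11.3, and the builds bosTau9 and ARS-UCD1.2. No source used here gives strand setting or annotation version. The deposited signal is the authors' normalized count per gene. The authors' comparison table holds log2 fold changes and p-values. Group and number came from the sample titles. The labels speak of 3 independently collected knees; p-values measure the spread between these libraries.

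Within a library, values above 0 were whole multiples of 1 step, and 100% of values came out whole within 0.01 read. Groups were compared two-sided with limma 3.58.1 under R 4.3.3 (trended prior) on log2(normalized count + 1) with group as the only term. On the recovered reads, edgeR 4.0.16 (quasi-likelihood) called 343 and DESeq2 1.42.0 called 701 genes, against 379 by limma. The added 1 shrinks changes of genes with few reads. Each pair of libraries of 1 group differed beyond sampling noise (chi-square per degree of freedom 57.9 to 435). Scripts were tested on simulated data.

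Deviations from the group means correlated between same-numbered libraries at 0.65, 0.44 and 0.21 for numbers 1, 2 and 3, over the tested genes, and between libraries of different numbers at -0.59 to 0.18, the latter for Dox- 3 and Dox+ 2 and close to the value of number 3. All 3 were over 0.1, so the numbers were taken to pair the libraries, and limma was also run with the number as a block. The labels name 3 knees and do not state which number is which knee.

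The members and lists were chosen with earlier results of these data known. Values by library were given for called members, members at an unadjusted p under 0.05 without overlap, 14 set members, and the 3 per group with the widest range within a condition; others were named where they complete a role. No sequence was used here.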

Additional observations from a re-analysis of the deposited data

How the results depend on the processing

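The pseudocount of 5, no filter, a mean of at least 50, TMM scaling and edgeR left both member counts of calls as they were, with a median log2 fold change between 0.50 and 0.67 for the antiviral and between 1.17 and 1.49 for the antigen presentation genes. DESeq2 called 6 antiviral, 7 antigen presentation, 3 other interferon pathway and 701 of all genes, against 1, 2, 1 and 379. With the replicate block the numbers were 2, 8, 5 and 858. The blocked calls among members are given in the report, and the block changed no call of other antigen processing genes, where 1 passed. With 1 library left out and no block, calls ranged from 0 to 3 for the antiviral, 0 to 3 for the antigen presentation and 0 to 1 for the other interferon pathway genes and from 148 to 437 over all genes. Without Dox+ 3 they were 0 of 35 and 0 of 13, while 139 of all genes were higher and 9 lower. With the replicate block and pair 1, 2 or 3 left out, calls were 8, 15 and 3 for the antiviral, 4, 9 and 8 for the antigen presentation, 3, 10 and 7 for the other interferon pathway and 1, 3 and 2 for the other antigen processing genes, and 790, 1210 and 1454 over all genes. The antigen presentation median ranged from 1.15 to 1.68 with 1 library left out and from 1.13 to 1.71 with 1 pair left out, and the antiviral one from 0.31 (both libraries numbered 3 left out) to 0.88 (number 2 left out). Fits with 1 pair left out have 1 residual degree of freedom per gene and are a weak check. There BOLA-DRA, CD74, NLRC5 and TAP1 passed without number 1, and B2M, BOLA-DMB, PSMB8 and PSMB9 did not. Signs turned for IRF1, at -0.25 without Dox+ 2 (up to 0.612 with another library left out) and -0.10 under the block without number 2, and for IFIT1, at -0.47 without Dox+ 3 (up to 1.32 with another library left out) and -0.82 under the block without number 3. The cause of these changes was not tested. Depth limits CIITA, IFIT2, OAS2 and the BOLA-DO and BOLA-DQ genes, which had few or 0 reads.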

Other observations

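MHC genes under symbols that the rule did not take were looked up after the data had been seen, by their description in the authors' table. Of 5 such genes with a mean of at least 10, 0 were called by limma, with 1 at an unadjusted p under 0.05, 0 by edgeR and 1 by DESeq2. Over all tested genes these shares were 2.88%, 10.6%, 2.6% and 5.33%. The gene at an unadjusted p under 0.05, also called by DESeq2, was BOLA, a class I heavy chain. It measured 1274, 2153 and 2603 normalized counts in Dox- and 6036, 2924 and 4667 in Dox+ cells. Its groups did not overlap (2.26-fold higher, limma adjusted p = 0.14, blocked 0.047). The class I genes BoLA and JSP.1 were at 3169 to 4366 normalized counts in Dox- and 3333 to 5722 in Dox+ cells and at 259 to 649 normalized counts in Dox- and 566 to 982 in Dox+ cells, with overlap in both. BLA-DQB, a class II gene, measured 134, 17.7 and 133 normalized counts in Dox- and 552, 48.5 and 149 in Dox+ cells. It was higher in each same-numbered pair, while number 2 was low in both conditions. Reads shared between these near-identical genes make their division uncertain.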
